A study of Mus musculus with 154 samples.

Results

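The 7 mice labelled (B6.A5 X B6)F1 were compared with the 20 mice labelled B6, together 27 mice or 17.5% of the mice of the series, over all 13289 genes in the count table. In the label the sire stands first, so these mice had a sire of the chromosome substitution strain (CSS) B6.A5, which carries chromosome 5 of strain A/J on a C57BL/6J (B6) background, and a B6 dam. They therefore carried 1 A/J and 1 B6 copy of chromosome 5 and B6 copies of the other autosomes, while the B6 control mice carried no A/J chromosome. All mice were 5 weeks old and had been fasted overnight, per the labels, and the study's methods describe them as males whose caudate liver lobe was used for RNA-Seq. The A/J copy always came from the sire, so an effect of the A/J sequence cannot be told apart from an effect of inheriting chromosome 5 from a B6.A5 father. The same substitution was also present in 19 double CSS mice with an A/J copy of chromosome 3, 6, 14 or 17 from the dam, labelled (B6.A5 X B6.A3)F1 (n = 5), (B6.A5 X B6.A6)F1 (n = 4), (B6.A5 X B6.A14)F1 (n = 5) and (B6.A5 X B6.A17)F1 (n = 5). Their controls were the 32 single CSS mice that carried the dam's A/J chromosome alone, labelled (B6 X B6.A3)F1, (B6 X B6.A6)F1, (B6 X B6.A14)F1 and (B6 X B6.A17)F1 (n = 8 each). These 51 mice share no animal with the 27 mice of the first comparison, and below they are called the other backgrounds.

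Mice that carry 1 foreign chromosome hold every sequence difference between the parent strains along it at once. A gene on the substituted chromosome can change through variants in its own promoter, enhancers, splice sites or transcript, which act in cis on the copy they sit on, whereas a gene on another chromosome can change only in trans, through a diffusible product. In liver, mouse chromosome 5 is known for albumin and its relatives, the Cyp3a family of drug-metabolizing cytochromes P450, the Ugt2b glucuronosyltransferases and a cluster of interferon-induced guanylate-binding proteins.

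The total counts per mouse lay between 6059667 and 26335513 in (B6.A5 X B6)F1 and between 6752637 and 25630807 in B6, with medians of 18246660 and 18806894. The 4 Y-linked genes of the table, Ddx3y, Eif2s3y, Kdm5d and Uty, had at least 140 counts in each mouse of both groups. All 10 hepatocyte markers of the list, albumin among them, were expressed, and their summed level was 121700 to 163800 CPM (counts scaled to library size) in (B6.A5 X B6)F1 and 117200 to 176000 CPM in B6. Of these 10 markers, and of the 6 Kupffer cell, 6 stellate cell, 4 cholangiocyte and 8 blood and lymphoid markers measured, 0 were called by edgeR, while 2, 1, 2, 0 and 0 had an unadjusted p under 0.05. The summed levels of each list overlapped between the groups. Nothing in the labels says which mice were littermates, so p-values measure the spread between these mice.

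The substitution changed 75 of the 971 measured genes of chromosome 5, which is 7.72%, at a false discovery rate (FDR) under 0.05 in edgeR's quasi-likelihood test. Of these, 45 were higher (4.63% of the chromosome's genes) and 30 were lower (3.09%). On the other chromosomes 26 of 12318 genes were called, or 0.211%, of which 15 were higher (0.122%) and 11 lower (0.0893%). At an unadjusted p under 0.05 the shares were 18.7% and 11.8%. The log2 fold change had a median of 0.0007 over all chromosome 5 genes and of -0.0023 over all other genes. Most of the changes on chromosome 5 were moderate, with a median absolute log2 fold change of 0.46. Among the 75 genes, 10 changed by at least 1 on the log2 scale, 24 by 0.5 to 1 and 41 by less than 0.5. Of the 10 largest changes, 9 were increases. The largest increase was that of Gbp11 with 2.98 and the largest decrease that of Zbed5 with -1.11.

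**Figure D1:**
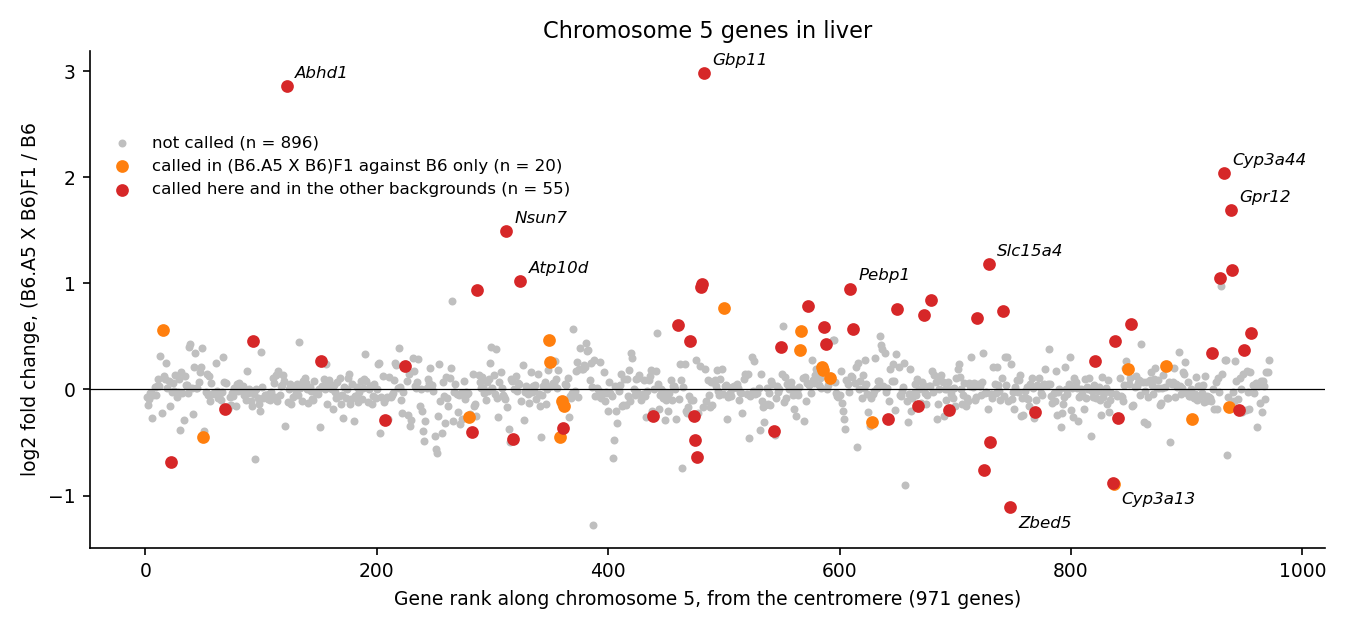
Each point is 1 of the 971 measured chromosome 5 genes, placed by its rank along the chromosome (x axis) and its log2 fold change in (B6.A5 X B6)F1 over B6 (y axis). Called genes occur along most of the chromosome at unequal density, with 9 called genes at or above 1 and 1 called gene, Zbed5, below -1.

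The called genes lay along the length of the chromosome, with starts from 4081145 (Cyp51) to 148990056 (5930430L01Rik) on the mm10 build, and a median distance of 739 kb between consecutive starts. In bins of 10 Mb, 13 of 16 bins held at least 1 called gene. The share of called genes was 16.3% of 43 genes between 70 and 80 Mb, 12.1% of 91 genes between 140 and 150 Mb and 11.8% of 102 genes between 110 and 120 Mb. Of the called genes in these bins, 2 of 7, 8 of 11 and 7 of 12 were called again in the other backgrounds. Over the whole chromosome these were 55 of 75. The density was uneven. In bins of 20 Mb the share called was 3.15% of 159 genes between 20 and 40 Mb and 1.56% of 64 between 40 and 60 Mb. It was 1.27% of 79 genes between 80 and 100 Mb and 11.7% of 179 between 100 and 120 Mb. No gene was called between the starts of Tapt1 at 44175154 and Rell1 at 63908897, a distance of 19.7 Mb with 55 measured genes. Most called genes stood alone. For 53 of them no other called gene started within 100 kb, and the remaining 22 formed 9 groups of neighbours, 7 of which moved in 1 direction.

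The longest group was Pop5, Rnf10, Coq5, Dynll1 and Cox6a1, between positions 115235836 and 115348981, where 5 of 8 measured genes were called and all 5 were higher. Pop5 encodes a subunit of RNase P, Rnf10 a RING finger protein, Coq5 a methyltransferase of coenzyme Q synthesis, Dynll1 a dynein light chain and Cox6a1 a subunit of cytochrome c oxidase. Their log2 fold changes were 0.21 for Pop5, 0.18 for Rnf10, 0.59 for Coq5, 0.43 for Dynll1 and 0.11 for Cox6a1. In the other backgrounds Coq5 (0.48) and Dynll1 (0.35) were called again, whereas Pop5 (0.06), Rnf10 (0.07) and Cox6a1 (-0.02) were not. Pop5 and Rnf10 overlap each other, so reads in the shared part may count for either gene. The other groups that the naming rule reached held 2 or 3 genes. Ppat, the first enzyme of purine synthesis, and Srp72, a signal recognition particle subunit, were both lower, by -0.45 and -0.11. The neighbours BC005561 and the noncoding RNA D930016D06Rik were both lower too, by -0.25 and -0.48. A group of 3 genes was mixed, since Cyp3a13 and the pseudogene Gm15502, which lies inside it, were lower by -0.88 and -0.89, while Gjc3, a connexin gene, was higher by 0.46. These calls were not equally firm when each of the 7 substitution mice was left out in turn. Gm15502 kept its call in 0 of the 7 fits, Srp72 in 1, Rnf10 and Cox6a1 in 2, and Pop5 and Gjc3 in 4. Coq5, Dynll1, Ppat, BC005561, D930016D06Rik and Cyp3a13 kept theirs in all 7. Under 9 other settings of the processing, BC005561 kept its call in 4 and Dynll1 in 7. Coq5, Ppat, D930016D06Rik and Cyp3a13 kept theirs in all 9.

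The 250 bases before the RefSeq start of 5 chromosome 5 genes are shown as the reference sequence of B6, the strain that gave the other copy. Mvk is shown because it shares its promoter region with Mmab, which rose with it, and the other 4 because they had large changes in both comparisons. Capitals mark CCAAT or its reverse complement ATTGG, the box bound by the factor NF-Y, which was searched on both strands and occurs in 33.8% of all 32851 promoter windows of this length. All windows are from build GRCm38.p6 and are written 5′ to 3′ on the strand of the gene.
Mvk, chr5:114444019-114444268, plus strand: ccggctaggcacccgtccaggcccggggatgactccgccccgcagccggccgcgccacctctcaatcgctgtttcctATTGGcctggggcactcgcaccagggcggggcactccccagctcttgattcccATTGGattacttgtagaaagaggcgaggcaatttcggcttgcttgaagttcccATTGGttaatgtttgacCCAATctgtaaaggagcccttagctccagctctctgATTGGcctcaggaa
Slc15a4, chr5:127617393-127617642, minus strand: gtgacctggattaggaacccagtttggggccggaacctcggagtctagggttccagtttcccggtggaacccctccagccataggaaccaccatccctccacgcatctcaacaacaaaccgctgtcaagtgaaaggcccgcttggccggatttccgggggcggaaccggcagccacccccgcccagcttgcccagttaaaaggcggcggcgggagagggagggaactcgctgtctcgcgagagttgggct
Pebp1, chr5:117287565-117287814, minus strand: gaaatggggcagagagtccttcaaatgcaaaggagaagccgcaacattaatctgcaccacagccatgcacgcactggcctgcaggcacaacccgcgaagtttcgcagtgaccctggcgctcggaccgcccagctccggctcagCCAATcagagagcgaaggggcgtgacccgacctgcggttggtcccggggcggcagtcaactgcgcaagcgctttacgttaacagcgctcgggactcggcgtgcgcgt
Zbed5, chr5:129895473-129895722, plus strand: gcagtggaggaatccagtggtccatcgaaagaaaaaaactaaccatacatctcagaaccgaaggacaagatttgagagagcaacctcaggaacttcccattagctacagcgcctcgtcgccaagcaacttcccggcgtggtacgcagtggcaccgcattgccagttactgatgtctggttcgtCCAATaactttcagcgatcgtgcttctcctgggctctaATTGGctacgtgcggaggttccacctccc
Cyp3a13, chr5:137921620-137921869, minus strand: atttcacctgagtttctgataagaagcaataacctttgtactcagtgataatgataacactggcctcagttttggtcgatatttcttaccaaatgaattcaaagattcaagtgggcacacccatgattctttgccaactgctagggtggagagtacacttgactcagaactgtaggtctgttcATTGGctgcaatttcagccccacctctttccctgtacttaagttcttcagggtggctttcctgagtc
The Mvk window held 5 boxes, 1 as CCAAT and 4 as ATTGG, a number reached by 0.213% of all windows, and the windows of Slc15a4, Pebp1, Zbed5 and Cyp3a13 held 0, 1, 2 and 1. The A/J sequence of these windows was not analysed here, and a match of letters does not show that a factor binds.

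In 8 chromosome 5 genes, or 0.824%, the log2 CPM of the 7 (B6.A5 X B6)F1 mice and the 20 B6 mice did not overlap, and in each of them the substitution mice were higher. They were Abhd1, Atp10d, Gbp11, Coq5, Pebp1, Acad10, Slc15a4 and Psph. On the other chromosomes 0 of 12318 genes had such a separation, which is a count of ranges and not a test. Abhd1, Gbp11, Acad10 and Slc15a4 were also separated without overlap between the 19 double CSS mice and their 32 controls, where 5 chromosome 5 genes (0.515%) were.

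Abhd1, a member of the alpha/beta hydrolase fold family, had 23.4, 25.98, 20.7, 30.4, 23.6, 24.2 and 24.7 CPM in (B6.A5 X B6)F1 replicates 1 to 7. In B6 its level had a minimum of 1.97, a median of 3.66 and a maximum of 5.04 CPM. The lowest substitution mouse was thus above the highest B6 mouse, and the fold change was 7.28 (log2 2.86, SE 0.11, adjusted p = 7.036e-49 in edgeR's quasi-likelihood test). The gene lies at chr5:30950066-30955091 and overlaps Preb, a gene of the opposite strand, which had 32.6 ± 4.16 CPM (SD, n = 7) against 34.6 ± 5.69 CPM (SD, n = 20) and was not called (log2 fold change -0.12, adjusted p = 0.345). The strand setting of the counting is not given in the sources used here, so reads in the shared part may have been counted for either gene.

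Slc15a4, a proton-coupled transporter of histidine and small peptides in the membrane of lysosomes, had 60.3, 67.2, 56.5, 59.5, 66.1, 59.3 and 52.2 CPM in the 7 mice and between 18.3 and 36.4 CPM (median 27.8) in B6. Its level was 2.27-fold higher (log2 1.18, SE 0.09, adjusted p = 1.347e-22). The adjoining gene Glt1d1, which encodes a glycosyltransferase-like protein and overlaps Slc15a4 at its start, moved the other way, from 60.02 ± 10.3 CPM (SD, n = 20) in B6 to 42.4 ± 3.56 CPM (SD, n = 7), a log2 fold change of -0.50 (SE 0.08, adjusted p = 1.015e-06). Pebp1, the Raf kinase inhibitor protein, had 113.6, 122.4, 96.8, 91.1, 97.2, 109.6 and 107.4 CPM, against 45.9 to 64.9 CPM (median 54.6) in B6, so it was 1.93-fold higher (log2 0.95, SE 0.05, adjusted p = 5.682e-37).

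Enzymes of mitochondrial and amino acid metabolism were among the separated genes. Acad10, of the acyl-CoA dehydrogenase family that oxidizes fatty acids, had 35.6, 45.6, 29.9, 28.8, 33.9, 27.2 and 32.4 CPM, and 14.2 to 24.5 CPM (median 20.1) in B6, a fold change of 1.69. Coq5 had 28.6 ± 1.89 CPM (SD, n = 7) against 18.99 ± 2.17 CPM (SD, n = 20), a fold change of 1.51. Psph, the last enzyme of serine synthesis, had 4.84 ± 0.811 CPM (SD, n = 7) against 2.86 ± 0.645 CPM (SD, n = 20), a fold change of 1.67. The start of Psph overlaps Cct6a of the opposite strand, which was not called and had a log2 fold change of -0.06. Atp10d, a P4-type ATPase that moves lipids between membrane leaflets, was 2.03-fold higher, with 16.6 to 22.5 CPM in the 7 mice and 4.32 to 15.8 CPM in B6.

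**Figure D2:**
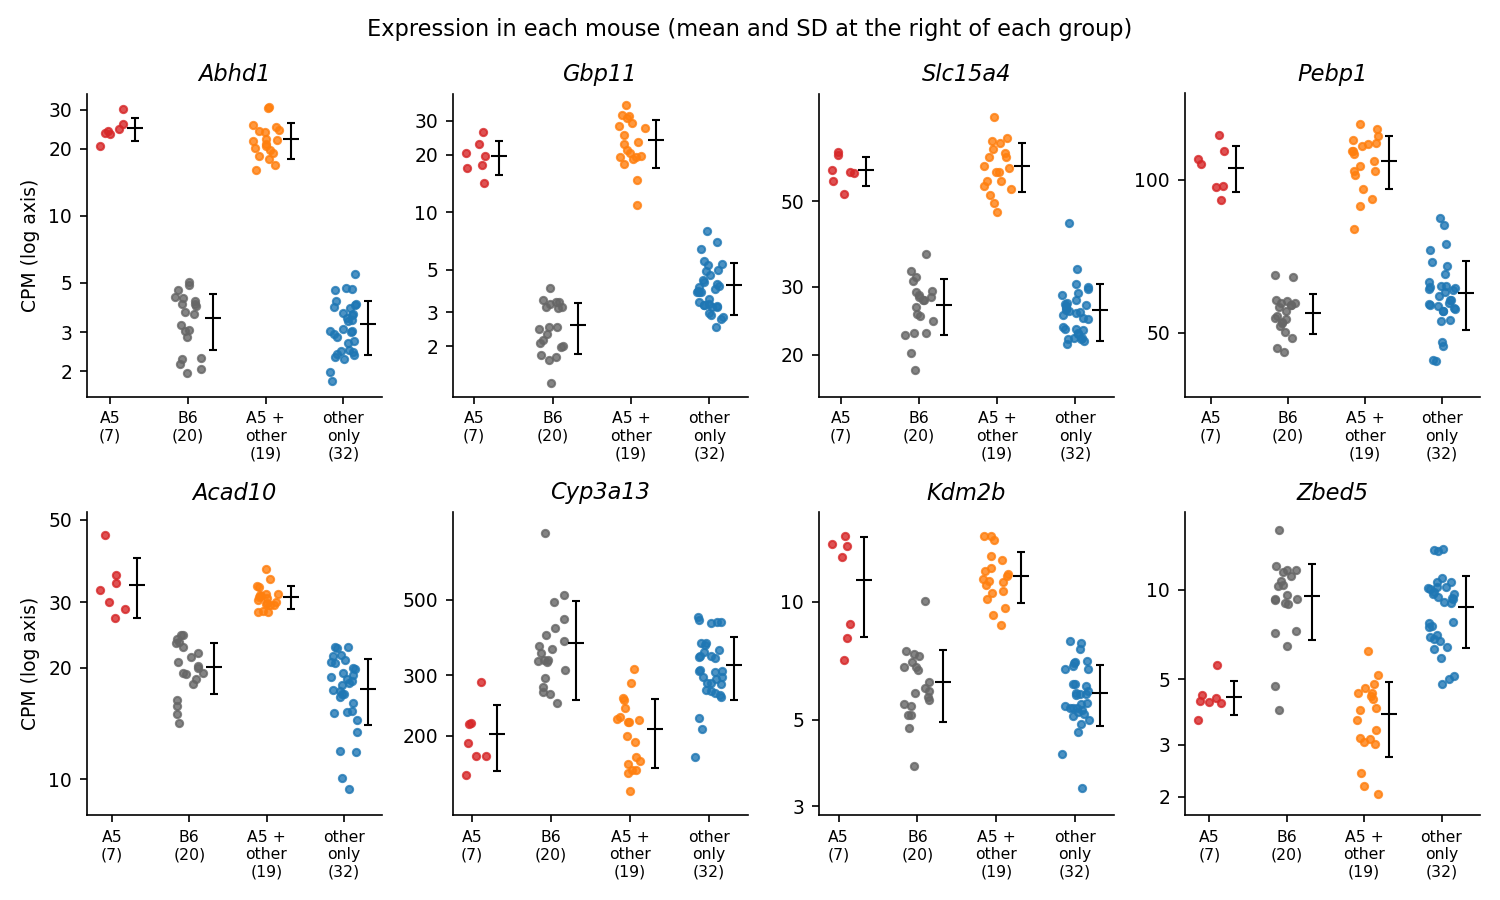
Expression of 8 chromosome 5 genes in CPM (log axis) in each mouse, with the mean and SD beside each group. A5 stands for (B6.A5 X B6)F1, A5 + other for the 19 double CSS mice with chromosome 5 and other only for the 32 single CSS mice without it. Abhd1 lies at 20.7 CPM or above in all A5 mice and at 5.04 CPM or below in all B6 mice, whereas the ranges of Kdm2b and Zbed5 overlap between A5 and B6.

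Decreases were smaller and their ranges overlapped with B6. Zbed5, a zinc finger gene derived from a DNA transposon, had 5.56, 4.19, 4.41, 3.64, 4.16, 4.32 and 4.23 CPM against 3.93 to 15.96 CPM (median 9.46) in B6. Its level was 46.5% of that in B6 (log2 -1.11, SE 0.13, adjusted p = 2.201e-11), and 1 substitution mouse lay below every B6 mouse. Its annotated span overlaps that of Phkg1, which was not called (log2 0.31, adjusted p = 0.39). Cyp3a13, a liver and gut P450, had 217.1, 174.1, 189.9, 174.4, 216.4, 152.9 and 287.3 CPM against 249.0 to 783.9 CPM (median 340.8) in B6, and 6 of 7 mice lay below all B6 mice. It fell to 54.3% of the B6 level (log2 -0.88, SE 0.11, adjusted p = 3.289e-11). Steap2, a metalloreductase of iron and copper uptake, had 11.2 ± 1.93 CPM (SD, n = 7) against 18.3 ± 5.202 CPM (SD, n = 20), a log2 fold change of -0.68, with 6 of 7 mice below all B6 mice.

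Further increases by the naming rule were those of Kdm2b and Ift81. Kdm2b, a histone demethylase of a Polycomb complex, had 7.12, 14.8, 8.10, 14.1, 13.04, 13.9 and 8.76 CPM against 3.79 to 10.1 CPM in B6. Replicates 2, 4, 5 and 6 were above every B6 mouse and replicates 1, 3 and 7 within their range, and the log2 fold change was 0.84 (SE 0.11, adjusted p = 1.476e-10). Ift81, a component of intraflagellar transport, was 1.63-fold higher with 6 of 7 mice above all B6 mice. Several genes with large folds were close to the detection limit. Gpr12, an orphan G-protein-coupled receptor, had 6 to 28 counts in the substitution mice and 0 to 18 in B6 (log2 1.69, SE 0.29), and Nsun7, an RNA methyltransferase family member, had 5 to 50 counts against 0 to 22 (log2 1.49, SE 0.24). Both were named after their values were seen, since their average level was below the limit of the rule.

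In the annotation, 4 measured genes of chromosome 5 are polymorphic pseudogenes, a class for genes that are disrupted in the reference strain B6 but intact in other strains. Of these, Gbp11 and Atp10d were higher in the substitution mice and were among the separated genes, against 7.72% of all chromosome 5 genes called and 0.824% separated. Oas1b (log2 0.42, SE 0.21, adjusted p = 0.252) and Cxcl11 (log2 0.30, SE 0.20, adjusted p = 0.393) were not called. This class was looked at after the values were seen, and Oas1b and Cxcl11 were expressed at 0.940 ± 0.432 and 1.63 ± 0.621 CPM (SD, n = 7). Protein-coding genes made up 66 of the 75 called and 779 of the 971 measured genes.

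The guanylate-binding proteins are interferon-induced GTPases that act against intracellular pathogens, and the Oas genes encode enzymes that sense double-stranded RNA. Of 13 measured Oas and Gbp genes, 3 rose (Gbp4, Gbp10 and Gbp11), 0 fell and 10 were not called, with a median log2 fold change of 0.28, against 4.63% of chromosome 5 genes called higher. At an unadjusted p under 0.05 there were 6 of the 13, all of them higher, against 18.7% of chromosome 5 genes. Gbp11 had 26.3, 19.6, 22.7, 17, 17.6, 20.3 and 14.2 CPM against 1.28 to 4.0 CPM (median 2.48) in B6, or 98 to 480 counts against 11 to 79. Gbp4 had 6.87, 8.93, 10.2, 7.46, 6.38, 6.40 and 4.93 CPM against 2.05 to 5.63 CPM in B6, with 6 of 7 mice above all B6 mice (log2 0.97, SE 0.13, adjusted p = 3.17e-09). Gbp10 was low, with 0.861 to 2.08 CPM against 0.120 to 1.70 CPM (log2 0.99, SE 0.24, adjusted p = 0.00204). Their neighbours Gbp8 (log2 -0.22), Gbp9 (0.22) and Gbp6 (-0.17) were not called, and none of the 7 measured Oas genes was. Gbp4 overlaps Gbp8 and Gbp9 in the annotation, and genes of this family are similar enough to share reads, so the split of counts among them is uncertain.

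The Cyp3a enzymes oxidize steroids, bile acids and many drugs. Of 7 measured members, 2 rose (Cyp3a44 and Cyp3a57), 1 fell (Cyp3a13) and 4 were not called, against 4.63% of chromosome 5 genes called higher and 3.09% called lower. At an unadjusted p under 0.05 there were 5 of the 7, 3 of them higher, against 18.7% of chromosome 5 genes. Cyp3a44 had 1.72, 1.68, 6.87, 8.50, 4.76, 3.20 and 3.48 CPM against 0.332 to 2.91 CPM (median 0.979) in B6, with 5 of 7 mice above all B6 mice. Its log2 fold change of 2.04 carried an SE of 0.43 (adjusted p = 1.783e-04), so the size is less certain than that of the other large changes. Cyp3a57 was near the detection limit, with 0.704 to 2.08 CPM against 0 to 1.21 CPM (log2 1.05, SE 0.25). Cyp3a11 was not called (log2 0.28, adjusted p = 0.788) and varied within both groups, with 9997 CPM in replicate 5 and 1291 to 2315 CPM in the other 6 substitution mice, and 893.9 to 9330 CPM in B6. Cyp3a25 had 1212 ± 190.9 CPM (SD, n = 7) against 996.2 ± 157.2 CPM (SD, n = 20), with a log2 fold change of 0.28 (SE 0.10, adjusted p = 0.0632). In the other backgrounds its log2 fold change was 0.40 (adjusted p = 1.94e-06). Members of this family are also similar in sequence, and Cyp3a41a and Cyp3a41b were not in the table.

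Over all chromosome 5 genes 7.72% were called and 18.7% had an unadjusted p under 0.05, and the counts of the other lists on the chromosome stand beside these shares. None of the 11 measured Ugt2 and Sult1 genes was called, with a median log2 fold change of 0.19 and 7 genes at an unadjusted p under 0.05, and none of the 4 genes of the albumin family (Alb -0.03, Afp -0.20, Afm 0.07 and Gc -0.04) with 0 at that p. Sult1e1, the oestrogen sulfotransferase, had the widest difference of these, with a log2 fold change of -1.28 (SE 0.46, adjusted p = 0.0682). Of 7 ABC transporters 1 fell, Abcg3, which had 3.13 ± 0.847 CPM (SD, n = 7) against 5.31 ± 1.85 CPM (SD, n = 20), a log2 fold change of -0.64 (SE 0.12). The canalicular phospholipid transporter Abcb4 had a log2 fold change of -0.03. Of 12 regulators, 1 fell, the repressor Rest, by -0.16 (SE 0.05, adjusted p = 0.0412), and the glucose-sensing factor Mlxipl (-0.06) and Clock (0.06) were not called. Of 17 lipid genes, 4 rose (Gpat3, Mvk, Mmab and Cyp51), 1 fell (Cd36) and 12 were not called. At an unadjusted p under 0.05 there were 1 ABC transporter, 4 regulators and 8 lipid genes, of which 0, 1 and 5 were higher. Gpat3, which starts triglyceride synthesis, had 21.4, 23.2, 23.1, 23.8, 25.0, 24.6 and 32.5 CPM against 9.81 to 27.9 CPM (median 15.2) in B6 (log2 0.61, SE 0.12, adjusted p = 9.982e-05). Cd36, a fatty acid transporter, had 54.2 to 88.0 CPM against 50.3 to 205.2 CPM, a log2 fold change of -0.45 (SE 0.15, adjusted p = 0.034). Its mean was 71.2 CPM in (B6.A5 X B6)F1, 105.4 CPM in B6 and 78.9 CPM in the 32 single CSS mice without A/J chromosome 5. In the other backgrounds the log2 fold change of Cd36 was -0.10, which was not called. Its call against B6 was kept in 3 of the 7 fits that left out 1 substitution mouse.

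None of the 26 genes of glucose metabolism was called by edgeR. Among them were Pck1 (log2 -0.11) and G6pc (log2 -0.11), the enzymes that begin and end gluconeogenesis. The called shares over all genes were 7.72% on and 0.211% off chromosome 5. The list had a median log2 fold change of -0.07, and 6 of the 26 values were positive. At an unadjusted p under 0.05 there were 4 genes, 0 of them higher, against 18.7% and 11.8% of all genes. In the other backgrounds 2 genes of the list were called higher and 0 lower. Among 6 endothelial markers 1 was called, Kdr, the main receptor for vascular endothelial growth factor, which is itself a chromosome 5 gene. Kdr had 79.0 to 95.5 CPM against 50.6 to 95.8 CPM in B6 (log2 0.26, SE 0.05, adjusted p = 1.379e-04). The summed level of the 6 markers was 275.5 to 343.6 CPM against 259.3 to 328.8 CPM, and Pecam1 (log2 -0.02), Cdh5 (-0.01) and Stab2 (0.07) were not called. In bulk tissue fewer cells of a type and less RNA per cell cannot be told apart.

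The 75 called genes were then followed in the other backgrounds, whose mice are different animals, although they share the fit and its surrogate variables. There the mean effect of chromosome 5 was called for 134 chromosome 5 genes, or 13.8%, of which 70 were higher (7.21%) and 64 lower (6.59%). Elsewhere 360 genes were called, or 2.92%, of which 151 were higher (1.23%) and 209 lower (1.7%). The shares at an unadjusted p under 0.05 were 26.8% and 18.4%. Of the 6 Kupffer cell markers, 4 were called lower there, Vsig4 (-0.20), Cd5l (-0.21), Adgre1 (-0.23) and Marco (-0.70), and all 6 were negative. Their summed level was 229.1 to 393.8 CPM in the 19 double CSS mice and 322.4 to 571.5 CPM in the 32 controls, and their part in the effects of the other backgrounds was not tested. The stellate cell marker Reln was also lower (-0.16), and no other marker was called. Of the 75 genes, 55 were called again with the same direction (5.66% of all chromosome 5 genes), 34 as higher and 21 as lower, and 70 had the same sign. With each of the 4 dam chromosomes, 57 of the 75 genes had the same sign as against B6, among them all 55. The 55 were chosen by the mean of these 4 effects, which favours such agreement. In the 55 genes the median absolute log2 fold change was 0.57 against B6 and 0.54 in the other backgrounds, and 39 of them had the larger absolute value against B6, the comparison in which they were selected. The 20 genes that were not called again had a median of 0.27 against B6 and 0.07 in the other backgrounds. The 5 genes with the opposite sign, Cyp51, Kit, Cox6a1, Lamtor4 and Gna12, had values between -0.11 and -0.01 there and were not called.

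**Figure D3:**
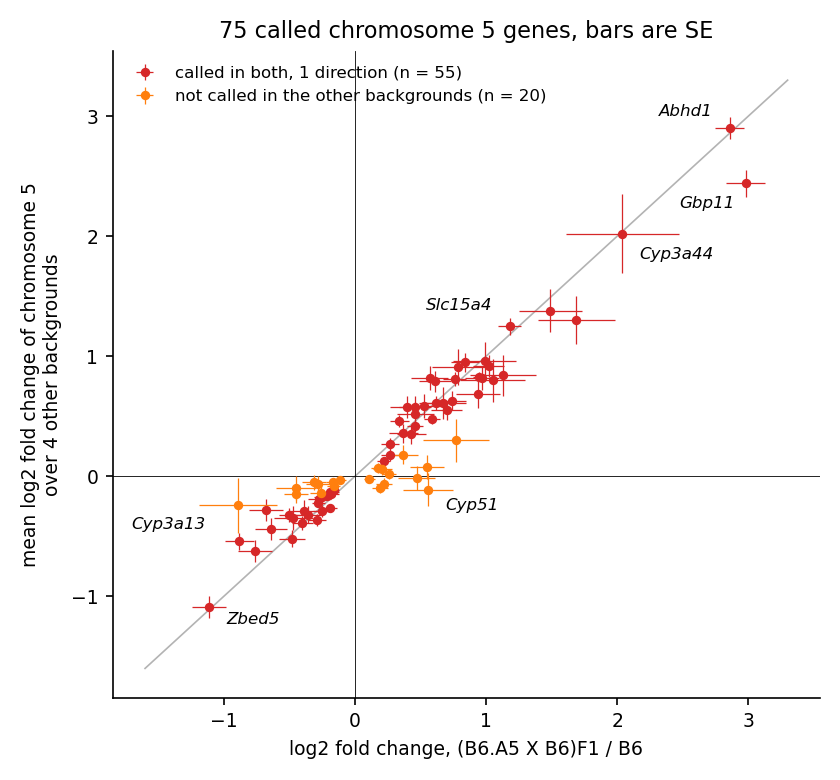
Log2 fold change of the 75 called chromosome 5 genes in (B6.A5 X B6)F1 over B6 (x axis) and the mean effect of chromosome 5 over the 4 other backgrounds (y axis), with SE bars and the line of equal effects. The 55 genes called in both lie along the line, and the 20 genes not called again lie near 0 on the y axis.

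For Abhd1, Slc15a4 and Zbed5 the mean over the other backgrounds was within 0.07 of the value against B6 on the log2 scale. Abhd1 had log2 fold changes of 2.84, 3.12, 2.93 and 2.71 with dam chromosomes 3, 6, 14 and 17, and Slc15a4 had 1.26, 1.33, 1.32 and 1.10. The decrease of Zbed5 was -1.17, -0.92, -1.03 and -1.25. Gbp11 was 2.81, 2.44, 2.56 and 1.95, with a mean of 2.44 (SE 0.11) and 2.98 against B6, a difference of -0.54 (SE 0.19, adjusted p = 0.259) that was not called. Among the 32 control mice of the other backgrounds Gbp11 had 2.51 to 8.03 CPM, and among the 19 double CSS mice 10.9 to 36.2 CPM. A further 79 chromosome 5 genes were called in the other backgrounds alone, with a median absolute log2 fold change of 0.19 there and 0.11 against B6, and 67 of them had the same sign against B6. The scavenger receptor gene Scarb1 was 1 of these, with 0.25 (SE 0.05) there and 0.07 (SE 0.08) against B6.

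The difference between the effect against B6 and that in each other background was tested as an interaction. With dam chromosomes 3, 6 and 17, 0 chromosome 5 genes differed at an FDR under 0.05 in edgeR, while 41 (4.22%), 58 (5.97%) and 88 (9.06%) had an unadjusted p under 0.05. With dam chromosome 14 there were 29 chromosome 5 genes (2.99%), and 4.07% of the genes elsewhere. The joint test of all 4 interactions called 6 chromosome 5 genes (0.618%), of which Cyp51 (adjusted p = 0.0329) and Ppat (adjusted p = 0.0284) were among the 75. Off chromosome 5 the joint test called 99 genes (0.804%), with Msmo1 (adjusted p = 0.00708) and Akr1c6 (adjusted p = 0.0126) among the 26 genes called against B6, and with dam chromosomes 3, 6 and 17 edgeR called 0 genes there, while 4.51%, 5.64% and 9.35% had an unadjusted p under 0.05. The mean of the 4 interactions called 0 chromosome 5 genes, with 77 (7.93%) at an unadjusted p under 0.05. Ppat fell by 0.45 on the log2 scale against B6 and had -0.50, -0.27, 0.21 and -0.02 with dam chromosomes 3, 6, 14 and 17. Among the 75 genes, Cyp3a13, Kdr, Lamtor4 and Gna12 also differed with dam chromosome 14 alone. Cyp3a13 had -0.26 in that background and -0.77, -0.70 and -0.43 with dam chromosomes 3, 6 and 17.

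Genes of sterol synthesis were called on chromosome 5 and elsewhere. Of 21 measured genes of this list, 5 rose, 0 fell and 16 were not called, with a median log2 fold change of 0.34 and 20 positive values, against medians of 0.0007 and -0.0023 over all genes on and off the chromosome. The shares called higher were 4.63% on and 0.122% off the chromosome. At an unadjusted p under 0.05 there were 16 of the 21 genes, and 18.7% and 11.8% of all genes. On chromosome 5 these were Mvk, mevalonate kinase, with 0.55 (SE 0.13, adjusted p = 0.00174), and Cyp51, lanosterol demethylase, with 0.56 (SE 0.19, adjusted p = 0.0452). Mmab, an enzyme of vitamin B12 metabolism whose start lies inside the Mvk window printed above and on the other strand, rose by 0.37 (SE 0.11, adjusted p = 0.0236). Off the chromosome they were Msmo1, sterol methyl oxidase, with 1.0 (SE 0.19, adjusted p = 0.00545), Sqle, squalene epoxidase, with 1.25 (SE 0.29, adjusted p = 0.0235) and Fdps, farnesyl diphosphate synthase, with 1.02 (SE 0.24, adjusted p = 0.029).

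The sterol genes differed among the 7 mice. Msmo1 had 111.2, 77.7, 37.7, 27.6, 24.2, 54.2 and 64.7 CPM in replicates 1 to 7, against 18.6 to 47.8 CPM (median 26.8) in B6. Replicates 1, 2, 6 and 7 were above all B6 mice and replicates 3, 4 and 5 were within their range. Sqle had 13.2, 12.5, 4.97, 4.16, 3.70, 6.08 and 9.23 CPM against 0.939 to 10.3 CPM in B6, and Mvk had 11.5, 7.25, 5.02, 3.99, 5.04, 6.72 and 5.83 CPM against 2.59 to 6.16 CPM. Over the 21 genes, the median difference from the B6 median was 0.69, 0.63, 0.58 and 0.44 on the log2 scale in replicates 1, 2, 6 and 7 and 0.14, 0.04 and 0.04 in replicates 3, 4 and 5. In B6 it lay between -0.33 and 0.75, so 1 B6 mouse was as high as any substitution mouse. Without replicate 1, 0 of the 21 genes were called by edgeR, with 10 at an unadjusted p under 0.05. Without replicate 2, 3 or 7 the count was 2, 3 and 2. In the other backgrounds 1 gene of the list was called by edgeR, Pmvk (log2 0.22, adjusted p = 0.0328). The median there was 0.16 with 20 of 21 values positive, against medians of -0.0056 and 0.0029 over all genes on and off the chromosome. The means of Msmo1, Sqle, Fdps, Mvk and Cyp51 were 0.33, 0.40, 0.40, 0.08 and -0.11 without being called. These means covered unlike values. With dam chromosome 3, where 4.12% of chromosome 5 genes and 0.106% of the others were called, Msmo1 rose by 1.46 (SE 0.26, adjusted p = 0.00153), Sqle by 1.64 (SE 0.37, adjusted p = 0.0443) and Fdps by 1.48 (SE 0.31, adjusted p = 0.0144), while Cyp51 (0.64) and Mvk (0.47) were not called. With dam chromosome 6 Msmo1, Sqle and Cyp51 had 0.52, 0.70 and 0.10, with dam chromosome 14 they had -0.27, -0.64 and -0.62, and with dam chromosome 17 they had -0.41, -0.09 and -0.57, none of them called. Promoter windows were held for 13 of the 21 genes, and all 13 had at least 1 CCAAT or ATTGG in the 250 bases, against 33.8% of all windows. For genes off chromosome 5 this sequence was of B6 origin in both groups. A part of the box in the rise was not tested.

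**Figure D4:**
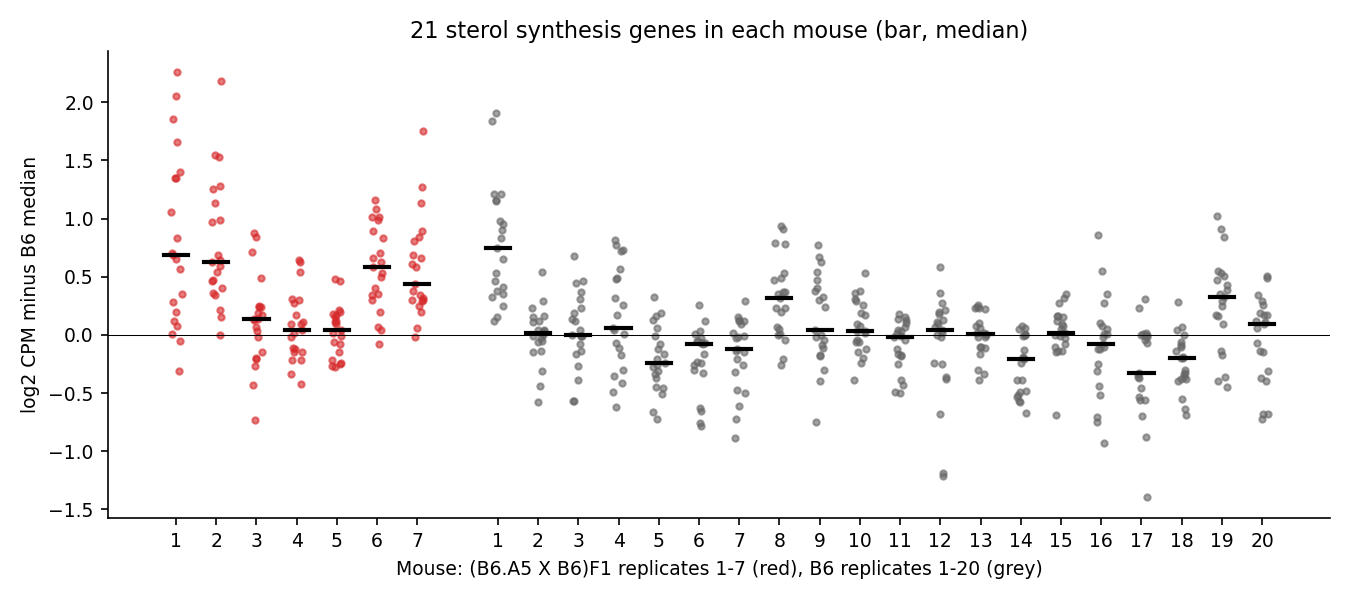
Each point is 1 of 21 sterol synthesis genes in 1 mouse, as log2 CPM minus the median of the B6 mice (y axis), for 7 (B6.A5 X B6)F1 mice (red) and 20 B6 mice (grey), with the median of each mouse as a bar. The medians of replicates 1, 2, 6 and 7 lie between 0.44 and 0.69, those of replicates 3, 4 and 5 between 0.04 and 0.14, and those of B6 between -0.33 and 0.75.

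Of the 26 genes called off chromosome 5, the naming rule reached Cyb5b, Msmo1, Bmper, Ybx3, Galnt7, Ankrd50, Arih1 and Vcam1 by p-value. Cyb5b, a cytochrome b5 of the outer mitochondrial membrane, had 181.5, 203.8, 152.7, 188.1, 161.0, 206.1 and 202.8 CPM against 103.9 to 236.6 CPM in B6 (log2 0.30, SE 0.06, adjusted p = 0.00545). Vcam1, an adhesion molecule for leukocytes, had 24.5 to 29.96 CPM against 29.94 to 67.5 CPM in B6 and a log2 fold change of -0.54 (SE 0.12, adjusted p = 0.0235). Bmper, a secreted regulator of bone morphogenetic proteins, had 0.558 ± 0.180 CPM (SD, n = 7) against 2.14 ± 1.69 CPM (SD, n = 20). Ybx3 (-0.29) and Arih1 (-0.19) were lower and Ankrd50 (0.26) was higher. Akr1c6, a hydroxysteroid dehydrogenase, rose by 0.51 (adjusted p = 0.0249), Tiam1 by 0.95 and Slc35b4 by 0.27, and Nrg4 fell by 0.84. The 32 single CSS mice without A/J chromosome 5 had means of 664.3 CPM for Akr1c6 and 11.8 CPM for Nrg4. These means were 642.9 and 11.01 CPM in (B6.A5 X B6)F1 and 473.5 and 19.9 CPM in B6. For Bmper the single CSS mean was 0.930 CPM. For Tiam1 the single CSS mean of 1.39 CPM was nearer to B6 (1.16) than to (B6.A5 X B6)F1 (2.38). Cyp7a1, the rate-limiting enzyme of bile acid synthesis, was named after its values were seen. It had 1098, 674.2, 1247, 840.7, 520.2, 420.9 and 672.7 CPM against 223.5 to 852.2 CPM (median 343.8) in B6 (log2 0.95, SE 0.22, adjusted p = 0.029), and 0.29 in the other backgrounds (adjusted p = 0.338).

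Of the 26 genes, 4 were called with the same direction in the other backgrounds, which are 0.0325% of all genes off chromosome 5. The share called in the other backgrounds was 2.92% of all these genes, 1.23% as higher and 1.7% as lower. These were Galnt7 (-0.58 against B6 and -0.41), Asns (-1.47 and -1.07), Slc10a5 (0.20 and 0.11) and C130074G19Rik (0.17 and 0.13), of which the last 3 were named after their values were seen. Asns, asparagine synthetase, had 11.3, 7.45, 6.59, 5.90, 4.62, 3.68 and 8.37 CPM against 7.36 to 54.8 CPM (median 15.7) in B6, so 4 of 7 mice were below all B6 mice. With dam chromosomes 3, 6, 14 and 17 its log2 fold change was -1.51, -0.04, -1.40 and -1.32. The mean of Asns was 6.84 CPM in (B6.A5 X B6)F1, 20.3 CPM in B6 and 10.6 CPM in the 32 single CSS mice. Galnt7, a glycosyltransferase that starts mucin-type O-glycans, had 2.37 to 3.41 CPM against 3.33 to 6.37 CPM. The 22 remaining genes had a median absolute log2 fold change of 0.61 against B6 and 0.09 in the other backgrounds. When each of the 7 substitution mice was left out in turn, 47 of the 75 chromosome 5 genes were called every time, and 0 of the 26 others. These fits kept the surrogate variables of the full fit, which were estimated with the omitted mouse. Without replicate 1 edgeR called 0 genes off chromosome 5, with 1169 at an unadjusted p under 0.05, and without replicate 3 it called 2.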

How the data were processed

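Liver RNA of 154 mice was sequenced as single-end reads from stranded total RNA libraries. The authors mapped reads to mm10 with TopHat2, mapped what was left to a genome carrying A/J variants, and used HTSeq-count for the counts, from which genes with low counts had been dropped. The deposited values are raw counts of 13289 genes, without normalization. Reads of A/J origin were aligned first to the B6 sequence, and what this did to each gene's count was not tested. Groups came from the strain labels. 1 double CSS mouse whose label lacks the F1 suffix was placed with its cross. The flow cell is not given in the sources used here.

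Counts were scaled by TMM in edgeR (version 4.0.16, R version 4.3.3). All mice of the series entered a strain model with 5 surrogate variables (sva version 3.50.0), since the study's methods used all strains. The test was the quasi-likelihood F-test of edgeR (legacy=TRUE), and p-values were adjusted by Benjamini-Hochberg for chromosome 5 and for the other chromosomes separately, with FDR under 0.05 as the call. Positions were taken from GENCODE vM21 on mm10, and genes without a position counted as off chromosome 5. CPM on the log2 scale had a prior count of 2. Promoter sequences are from RefSeq (GRCm38.p6) and matched 54 of the 75 called genes by symbol. The test was also run on simulated counts for (B6.A5 X B6)F1 against B6 over 13289 genes. There 95 of 100 genes with a log2 change of 1 and 81 of 100 with 0.5 were recovered, with 7 false calls. The simulated spread followed the dispersion trend alone, and the surrogate variables were taken as known. Changed genes lay on any chromosome, and p-values were adjusted over all genes together. The figures therefore do not give the recovery or the false calls of the reported comparison.

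The members, gene lists and tests were chosen with earlier results of these data known. Lists were the Cyp3a, Ugt2 and Sult1, albumin, Oas and Gbp, ABC transporter, lipid, regulator, glucose and sterol genes and 6 sets of cell type markers, and some genes are in more than 1 list. Genes were named if they were among the 15 largest changes of called chromosome 5 genes (average log2 CPM 1 or more), the 10 smallest p-values there, the 8 smallest elsewhere, called list members, the 5 longest groups of neighbours within 100 kb, or called genes with an interaction at FDR under 0.05. Genes that overlap a named gene were named after their values were seen. Some genes that the rule reaches are not reported here. No 2 mice had identical counts. Alternatives were 0 or 10 surrogate variables, DESeq2 size factors, the Wald test of DESeq2 (version 1.42.0), a filter of at least 15 counts in 75% of the mice, legacy=FALSE, adjustment over all genes, FDR under 0.01, the mice of each comparison alone, and leaving out each mouse in turn. Fits without 1 mouse kept the surrogate variables, scaling factors and dispersion trend of the full fit. They may therefore overstate how stable the calls were.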

Additional observations from a re-analysis of the deposited data

Results flagged for a closer look

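Among 51 named genes, the 7 (B6.A5 X B6)F1 mice were checked for a mouse far from the others, and 1 gene had such a mouse. Gpat3 had 32.5 CPM in replicate 7 and 21.4 to 25.0 CPM in the other 6 mice. Chance alone gives such a gap in about 1 in 20 groups.

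The effect of chromosome 5 differed between (B6.A5 X B6)F1 and the cross with dam chromosome 14, by the interaction test of edgeR, for 16 named genes. An interaction at an FDR under 0.05 was itself a way into the named genes, so their count of 16 follows from the naming rule. Over all genes the shares with this difference were 2.99% on chromosome 5 and 4.07% elsewhere. The values that follow are the differences, as the log2 fold change with dam chromosome 14 minus that against B6, at an FDR under 0.05 within each set of genes. On chromosome 5 the difference was 0.62 for Cyp3a13 and 0.66 for Ppat, genes that were lower against B6. It was -1.18 for Cyp51, -0.35 for Kdr, -0.44 for Lamtor4 and -0.41 for Gna12, genes that were higher. Off chromosome 5 it was -1.27 for Msmo1, -1.89 for Sqle, -0.41 for Cyb5b, -0.41 for Ankrd50, -1.35 for Tiam1, -1.13 for Akr1c6 and -0.40 for Slc35b4, all higher against B6. For the genes lower against B6 it was 0.34 for Ybx3, 0.22 for Arih1 and 1.18 for Nrg4. All 16 differences had the sign opposite to the effect against B6. The 7 mice of (B6.A5 X B6)F1 enter both the choice of these genes and the difference. Under the mean of the 4 interactions, 0 chromosome 5 genes were called by edgeR, with 77 at an unadjusted p under 0.05.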

How the results depend on the processing

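No paired analysis was possible because the labels carry no replicate numbers shared between the groups. The 75 chromosome 5 genes called against B6 became 36 with the 27 mice alone, 48 with the adjustment over all genes and 48 at FDR under 0.01, and other settings gave 52 to 79. Leaving out a substitution mouse gave 58 to 70. All 36 genes of the 27-mouse fit were among the 75. Of these, 45 of 75 were higher, and 45 of 76 with DESeq2 size factors. The 26 genes off chromosome 5 became 12 with 0 and 12 with 10 surrogate variables, 41 with the count filter, 60 with the adjustment over all genes, 2 at FDR under 0.01, and 0 with the 27 mice alone (857 at an unadjusted p under 0.05), and 0 to 36 without 1 mouse. DESeq2 called 78 and 31. In the other backgrounds, the 134 chromosome 5 genes became 83 at FDR under 0.01. The share of genes called elsewhere, 2.92%, became 12.9% with 0 and 0.244% with 10 surrogate variables, 8.9% with the 51 mice alone, 0.576% at FDR under 0.01, 0.292% without dam chromosome 14, and 1.55% to 4.3% without 1 mouse, where 1.55% and 1.74% were those without (B6.A5 X B6.A6)F1 replicates 2 and 1. The 55 genes called in both were 44 to 56 over the settings and 49 to 54 without 1 mouse. The 16 called list genes became 7 with the 27 mice alone, 10 at FDR under 0.01, and 8 (without replicate 1) to 19 without 1 mouse. The 5 sterol genes became 2 with 10 surrogate variables, 1 with the 27 mice alone, 2 at FDR under 0.01, and 0 to 7 without 1 mouse. The 6 interaction genes became 0 under the mean of the 4 interactions (77 at an unadjusted p under 0.05). Bins with a called gene were 81.2% at 10 Mb and 100% at 20 Mb. Of the 37 named chromosome 5 genes, 19 kept their call under all alternatives and 24 without each mouse in turn. Of 14 named genes elsewhere, 0 did either. No named gene changed sign. The causes were not tested. Leaving out dam chromosome 14, the mean of the interactions and the repeats for the sterol list were chosen after seeing the data.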
